A study of Mus musculus with 22 samples.

Results

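The nuclear-encoded genes of oxidative phosphorylation were followed through mitotic exit by the RNA polymerase II (PolII) peaks that lay over them. They were taken by symbol from GENCODE vM1, the gene annotation of the mouse mm9 build, as autosomal protein-coding genes whose names start with Ndufa, Ndufb, Ndufc, Ndufs, Ndufv, Sdh, Uqcr, Cox4, Cox5, Cox6, Cox7, Cox8 or Atp5, without the assembly factors named Ndufaf and Sdhaf. This gave 85 of 21418 autosomal protein-coding genes: 37 of complex I, 4 of complex II, 8 of complex III, 18 of complex IV and 18 of complex V. A few are members by name alone. Cox4nb is a neighbour of Cox4i1, Atp5l-ps1 carries a pseudogene name, and Ndufb8 has 2 gene entries, 1 of which runs on from Sec31b.

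Oxidative phosphorylation makes ATP at the inner mitochondrial membrane. Complexes I and II pass electrons from NADH and succinate to ubiquinone, complex III passes them to cytochrome c, complex IV passes them to oxygen, and complex V, the ATP synthase, uses the proton gradient that results. The few subunits encoded by mitochondrial DNA are joined by many encoded in the nucleus, which have to be transcribed by PolII, and erythroid precursors need mitochondria for the synthesis of haem.

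The cells were G1E-ER4, a mouse erythroid precursor line derived from the GATA1-null line G1E, in a sub-line with CTCF fused at both alleles to an auxin-inducible degron and mCherry, with the auxin receptor OsTiR delivered by the MigR1 retrovirus. All groups shared these alleles, were arrested in prometaphase with nocodazole and were sorted by flow cytometry. Auxin, which starts degradation of CTCF, was given during the arrest and after release, and control cells had none. The 22 samples held 18 PolII ChIP-seq libraries and 4 inputs, 1 for each stage. The libraries were 2 control and 2 auxin in prometaphase (0 h), early-G1 (1 h) and late-G1 (4 h), and 3 and 3 in mid-G1 (2 h), described by the study as biological replicates. The study's reporting summary names its late-G1 peak lists and sequencing depths as 3 control and 1 auxin. The names of its raw reads and the sample titles give 2 and 2. The titles were followed here, and the label of late-G1 auxin replicate 1 was not tested. A single engineered sub-line was used, so replicates are not separate lines.

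Each library came with its own list of peaks, called by the authors against the input of its stage. A gene was scored as detected when a peak overlapped the gene or the 500 bp on either side. Its rank was the place of its strongest peak in the list, ordered by fold enrichment over local background, with rank 1 for the strongest. Its covered bases were the bases of that window under peaks. Differences are given as −log2 rank, so that a positive value is a stronger place in the list and 1.00 is a halved rank number, and were tested by limma over all 9383 genes with a peak in all 14 post-mitotic libraries, with Benjamini-Hochberg adjustment and a threshold of 0.05. Ranks show which genes moved past other genes, and a change shared by all genes cannot be seen in them.

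Relative depth recovered from the lists was 4.94 to 5.96 reads per kb in prometaphase and 4.51 to 13.3 after release. The prometaphase lists held 2414 to 3918 peaks and the others 50594 to 117125. Mid-G1 control replicate 1 stood apart, with the lowest depth and the fewest post-mitotic peaks, and results that rest on it are given with and without it. The stages differ in their input as well as in time, so a difference between stages and a difference between inputs cannot be told apart. The erythroid label was checked on 12 markers, of which 11 were found by symbol, and all 11 had a peak in 14 of 14 post-mitotic libraries. Of 11 markers of liver, lymphoid, neural, muscle, epithelial and fibroblast cells, 10 had no peak in any list, and Gfap had a weak one in 9 libraries. Degradation acts on the CTCF protein, so PolII at Ctcf does not check the labels. Ctcf itself held ranks 3614 to 12756, with a difference between auxin and control of -0.14 ± 0.24 (SE, n = 7 and 7, limma adjusted p = 0.895).

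Promoters of 6 members are shown first, since the strongest peaks of 5 of them moved between stages, and the sixth is the ubiquitous form of a subunit whose muscle form had no peak. The median summit lay on these bases for Uqcr11, just downstream for Sdha, Atp5g3 and Atp5e, and at -187 bp from the RefSeq start for Atp5c1, upstream of the bases shown. Promoters of 68 of the 85 members were matched in RefSeq (GRCm38.p6), by gene identifier, symbol or synonym. Each sequence is the 150 bases before a RefSeq start, 5′ to 3′ on the strand of the gene, and was placed in mm9 by exact match. All 6 genes are on the minus strand. Capitals mark matches to GCGCANGCG, the core of the site bound by NRF1, an activator of respiratory genes, or to CCGGAAG, the core bound by ETS factors such as GABPA, on either strand.
Sdha (flavoprotein subunit of complex II, chr13:74487689-74487838): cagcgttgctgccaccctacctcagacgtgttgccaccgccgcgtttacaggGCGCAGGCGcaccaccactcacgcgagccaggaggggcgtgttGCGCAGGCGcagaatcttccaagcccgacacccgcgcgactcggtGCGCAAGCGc
Atp5c1 (gamma subunit of the ATP synthase, chr2:10002060-10002209): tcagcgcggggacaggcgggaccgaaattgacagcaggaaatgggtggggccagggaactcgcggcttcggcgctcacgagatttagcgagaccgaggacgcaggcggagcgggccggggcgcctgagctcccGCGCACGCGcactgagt
Uqcr11 (small subunit of complex III, chr10:79869567-79869716): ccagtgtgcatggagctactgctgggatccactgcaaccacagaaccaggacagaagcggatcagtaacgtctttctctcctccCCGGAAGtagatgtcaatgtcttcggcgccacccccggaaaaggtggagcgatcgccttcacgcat
Atp5e (epsilon subunit of the ATP synthase, chr2:174289603-174289752): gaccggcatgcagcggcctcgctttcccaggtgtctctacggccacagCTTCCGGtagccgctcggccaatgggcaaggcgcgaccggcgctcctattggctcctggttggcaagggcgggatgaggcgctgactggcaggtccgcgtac
Atp5g3 (a gene for the membrane ring subunit c of the ATP synthase, chr2:73749384-73749533): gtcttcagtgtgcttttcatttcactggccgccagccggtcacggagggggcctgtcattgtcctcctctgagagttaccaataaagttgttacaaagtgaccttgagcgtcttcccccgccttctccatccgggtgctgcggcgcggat
Cox6a1 (the ubiquitous form of subunit 6a of complex IV, chr5:115798968-115799117): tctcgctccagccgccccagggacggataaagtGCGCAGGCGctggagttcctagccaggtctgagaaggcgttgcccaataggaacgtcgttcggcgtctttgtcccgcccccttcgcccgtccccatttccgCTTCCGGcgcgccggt

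Sdha held 3 matches to GCGCANGCG in these bases, Atp5c1 and Cox6a1 held 1 each, and the stretch shown for Atp5g3 held no match to either motif. Over the full 300 bases of each entry, 250 before and 50 after the start, GCGCANGCG was found in 21 of 73 member promoters (28.8%, 67 RefSeq genes), against 8.75% of 20085 autosomal coding promoters and 14.9% of the 9428 promoters of genes with a peak in all 14 post-mitotic libraries. CCGGAAG was found in 21.9% of member promoters, 11.9% of all and 20.4% of those with a peak. AANATGGC, bound by YY1, was found in 23.3%, 6.36% and 9.55%, GGGCGG, bound by SP1, in 39.7%, 47.0% and 64.0%, and TATAAA in 8 of the 73 member promoters, 12.7% and 6.76%. Both strands were searched, none of the motifs contains another, and matches of different motifs may share bases. The shares are descriptions of letters, and binding was not measured.

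To ask which of these genes carried PolII after mitosis, detection was counted in each list. A peak was found at 77 of 85 members (90.6%) in all 14 post-mitotic libraries, beside 43.8% of all 21418 genes. Single post-mitotic libraries detected 77 to 80 members. The lowest count was in mid-G1 control replicate 1. By complex, the genes detected in all 14 libraries were 34 of 37 in complex I, 4 of 4 in complex II, 8 of 8 in complex III, 14 of 18 in complex IV and 17 of 18 in complex V. The annotated genes were shorter than most, with a median of 7674 bp against 15535 bp for all genes, and a longer window has more room for a peak.

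The 5 members without a peak in any of the 18 lists, where 45.7% of all genes had none, were Cox4i2, Cox6a2, Cox7b2, Cox8c and Atp5l-ps1. Cox4i2 and Cox6a2 are tissue forms of subunits whose ubiquitous forms, Cox4i1 and Cox6a1, were detected in all 14 libraries with median ranks of 2732.5 and 3478.5. Cox4i1 had the same best peak as Cox4nb in 14 of 14 libraries. The best summit in the Cox6a1 window lay within 500 bp of its own start in 9 of 14 libraries. It was nearer to another gene's start in 5. Cox7b2 and Cox8c are likewise variants of complex IV subunits. A missing peak means that the caller's threshold was not reached and not that PolII was absent.

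Other tissue forms did have peaks in their windows. Cox7a1, the heart and muscle form, had a median rank of 3246.5 over the 14 libraries, and the summit of its strongest peak lay a median of 8.5 bp from its own start and within 500 bp of it in 14 of 14. Its ubiquitous counterpart Cox7a2 had a median rank of 2586. The heart and muscle form Cox8b was weak, with a median rank of 12120 against 4282 for Cox8a, and its summit lay within 500 bp of its own start in 4 of 14 libraries. Cox6b2, known as a testis form, had a median rank of 8978.5 against 6846.5 for Cox6b1, and its summit lay a median of 1848 bp from its start, outside the gene, in none of 14 libraries within 500 bp. Ndufa4l2, a paralogue of Ndufa4, a subunit first assigned to complex I and now placed in complex IV, and known to be induced in hypoxia, had a median rank of 2774 against 2717 for Ndufa4. The summit in the Ndufa4l2 window lay a median of 1562 bp inside the gene and in 14 of 14 libraries more than 500 bp from its start. For Cox6b2, Cox8b and Ndufa4l2 the window therefore held a peak without a summit at the start of the gene in most or all libraries, and the rank is that of the window. For their counterparts Cox6b1 and Ndufa4, the summit lay within 500 bp of the own start in 8 and 10 of 14 libraries. The summit of Ndufa4 was also within 500 bp of another gene's start in 14.

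Complex I also held 3 members detected in part of the libraries, all weakly. Ndufs7 and Ndufs8, iron-sulphur subunits of the complex I core, had a peak in 12 and 9 of 14 libraries, with median ranks of 29354.5 and 29081, and Ndufb5, an accessory subunit, in 11 with a median rank of 52052. None of their best summits fell on the start of Ndufs7 or Ndufs8, and 3 did for Ndufb5. The ranks of Ndufs8 ran from 8228 to 101038, those of Ndufs7 from 14264 to 51274, and those of Ndufb5 from 33395 to 88041.

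Ranks of the 77 members with a peak in all 14 libraries covered a wide range. The median over members of the mean rank was 3448, against 4619 over the 9383 genes with a peak in all 14. Within a library, the median rank of the members detected was 2885 to 3768, and that of all genes detected was 4987 to 5236. The strongest 3 by mean rank were Atp5a1, the catalytic-ring alpha subunit of the ATP synthase, at 222 ± 50.2 (SD, n = 14), Ndufs1, the largest subunit of complex I, at 309 ± 104, and Ndufa7, an accessory subunit, at 322 ± 241. For Atp5a1 the lowest, median and highest ranks were 151, 222.5 and 296, for Ndufs1 223, 276 and 555, and for Ndufa7 176, 237 and 921. The ranges of these 3 overlap, so their order is not resolved. Atp5b, the beta subunit that forms the catalytic sites with Atp5a1, had 287, 496 and 884. By complex, the median mean rank was 3006 for complex I, 3044 for complex II, 3365 for complex III, 4483 for complex IV and 3632 for complex V.

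**Figure D1:**
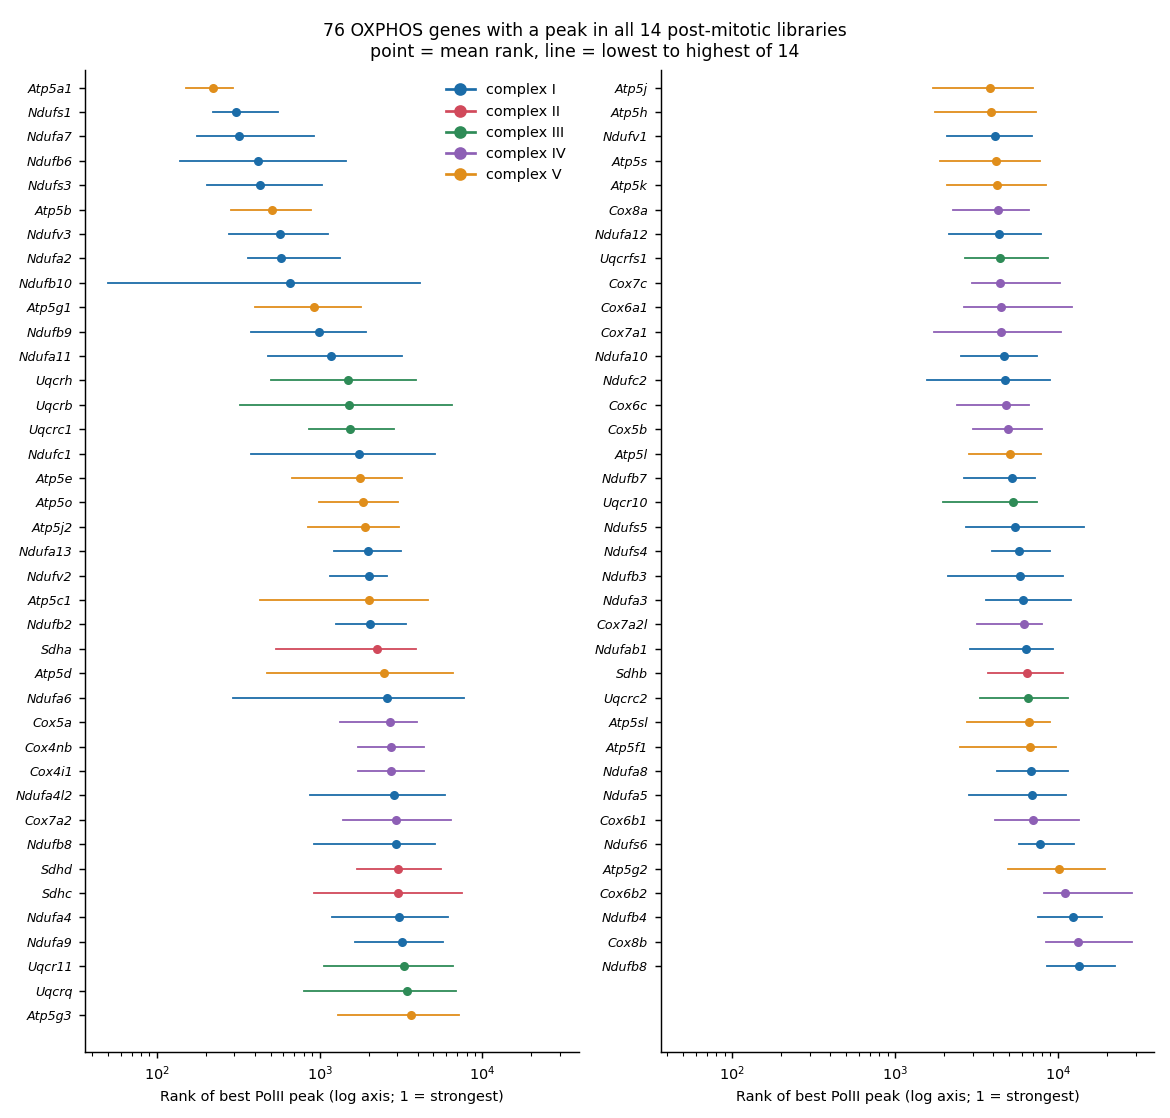
Mean rank of the strongest PolII peak (points) and lowest to highest rank over the 14 post-mitotic libraries (lines) for 76 of the 77 members detected in all of them, on a log axis with rank 1 the strongest and colours for the complexes. Atp5a1, Ndufs1 and Ndufa7 lead with mean ranks of 222, 309 and 322, and the last member, the Ndufb8 entry that runs on from Sec31b, has a mean rank of 13561.

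Many of these peaks do not belong to 1 gene. The summit of the strongest peak lay within 500 bp of an own annotated start and of no other gene's start, in at least 8 of 14 libraries, for 41 of the 77 members. For 23 it lay within 500 bp of an own start and of the start of another gene, and for 13 elsewhere. Sdha with Ccdc127, Atp5c1 with Kin, Uqcr10 with Zmat5, Ndufb3 with Fam126b, Ndufs1 with Eef1b2, Ndufa7 with Rps28, Ndufs3 with Kbtbd4, Sdhd with Timm8b, Uqcrh with Lrrc41 and Atp5j with Gabpa, itself an activator of respiratory genes, had the same best peak in 14 of 14 libraries. So did Cox4i1 with Cox4nb, both of them members. PolII at such a start cannot be assigned to either gene from a peak list. Ndufb6, with the fourth best mean rank (421), had its best summit a median of 9654.5 bp from its own start and within 500 bp of the start of another gene, Topors, in 14 of 14 libraries. The median of the mean rank was 4387 for the members with their own start alone, 2267 for those with a shared start and 3888 for those with the summit elsewhere.

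**Figure D2:**
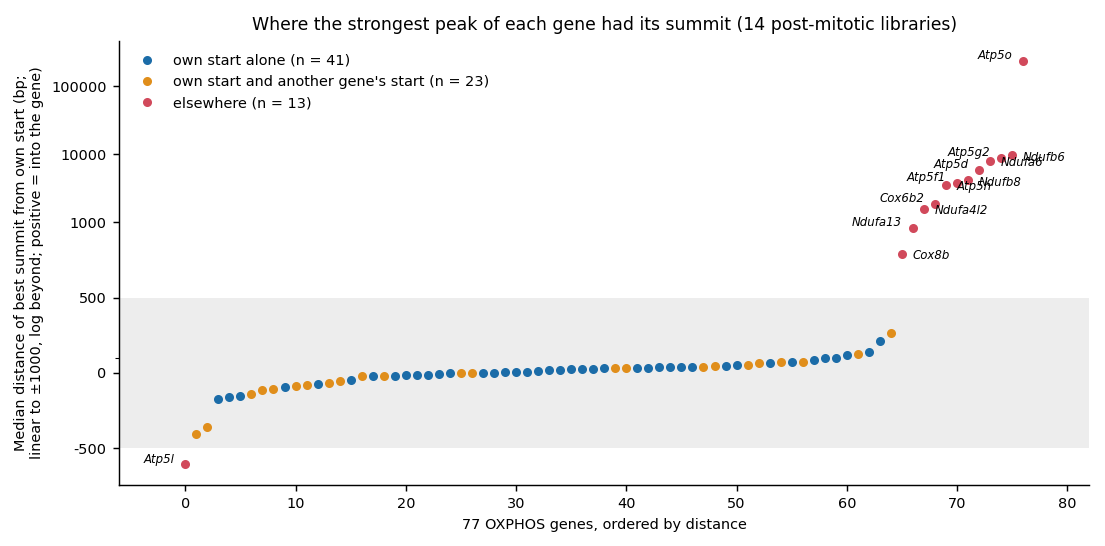
Median distance, over the 14 post-mitotic libraries, from each member's own annotated start to the summit of its strongest peak, positive into the gene, linear to 1000 bp on either side and logarithmic beyond, with the band of 500 bp in grey. The 41 members with their own start alone and the 23 with a shared start lie in the band, and the 13 others lie outside it, up to 237688 bp for Atp5o, whose annotated gene is 247290 bp long.

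In prometaphase most of the group had no peak. Members were detected in 19 and 19 of 85 cases in the control libraries and in 15 and 14 in the auxin libraries, while all genes numbered 2312 and 2001 in control and 1960 and 1443 in auxin. Both counts were lower with auxin in each library, and with 2 libraries against 2 no exact permutation test can reach a p below 0.333. In all, 28 members (32.9%) had a peak in at least 1 prometaphase library, against 15.6% of all genes. All genes include the 45.7% without a peak in any list. This share was not counted among the genes with a peak in all 14 post-mitotic libraries.

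A peak in all 4 prometaphase libraries was found for 8 members (9.41%), against 4.35% of all genes and 9.9% of the genes with a peak in all 14 post-mitotic libraries, so that the members' share was close to that of genes with PolII after release. They included Ndufs1, Ndufa7, Ndufb9 and Ndufb10 of complex I, Cox8a of complex IV, and Atp5a1 and Atp5g1 of complex V, and all 8 were also detected in all 14 later libraries. Ndufa7 was the strongest, with ranks of 102 and 69 in control and 92 and 54 in auxin libraries. Ndufb10 had 163 and 491 in control and 196 and 178 in auxin, and Ndufs1 had 313 and 446 in control and 191 and 475 in auxin. Atp5a1 had 666 and 605 in control and 1477 and 898 in auxin, and its 2 control ranks were the stronger. Cox8a had 2122 and 1551 in control and 1169 and 958 in auxin, and its 2 auxin ranks were the stronger. Ndufb9 and Atp5g1 had ranks between 795 and 3736. Ndufa7 and Ndufs1 share their start with the genes of a ribosomal protein, Rps28, and a translation factor, Eef1b2. The prometaphase lists are shorter, so these ranks are not compared with those after release. Leaving out 1 prometaphase library gave 9 to 10 members.

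To ask whether CTCF is needed for PolII to return to these genes, auxin and control libraries were compared over the 3 post-mitotic stages. No member passed the test on rank. The count was 0 of 77, where 0.778% of the 9383 genes were called. At an unadjusted p under 0.05 there were 8 members (10.4%), against 9.61% of all genes, and the difference between these shares was not tested. The median difference of the members was -0.03, and that of all genes was 0.01. The median standard error of a member was 0.25 on this scale, so a change of rank may have gone uncalled. In simulated data with 200 changed genes, this comparison called 49.5% of them at a difference of 1.00 and 94.5% at 2.00.

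The largest differences in each direction are given with their values, although none passed. Atp5d, the delta subunit of the ATP synthase, was at 1.08 ± 0.41 (SE, n = 7 and 7, limma adjusted p = 0.383). Its ranks in control were 3124 and 2704 in early-G1, 6588, 4090 and 1284 in mid-G1, and 1976 and 4050 in late-G1, and with auxin 1945 and 1841, 1054, 1850 and 1198, and 2639 and 475. The groups were apart in early-G1 and overlapped in mid-G1 and late-G1, and the summit lay within 500 bp of the start of Atp5d in only 3 of 14 libraries. Ndufa6 was at 0.69 ± 0.63 (limma adjusted p = 0.785) and Ndufa11, whose start is shared with Vmac, at 0.66 ± 0.33 (limma adjusted p = 0.566). The best summit in the Ndufa6 window lay a median of 8033.5 bp from its own start. It was within 500 bp of that start in 0 of 14 libraries and nearer to another gene's start in 14.

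On the other side stood Ndufb10, at -1.16 ± 0.84 (limma adjusted p = 0.719), and Atp5g2, another gene for subunit c, at -0.79 ± 0.20 (limma adjusted p = 0.109). Ndufb10 had the largest standard error of the members on the log2 scale, with ranks of 1140 and 51 in early-G1 control and 4140 and 75 in early-G1 auxin libraries. In 3 of 14 post-mitotic libraries its best peak was also that of Rps2, and in 11 the summit lay within 500 bp of its own start. Atp5g2 had the smallest adjusted p of all members. Its ranks were 7256 and 7155 in early-G1 control against 11093 and 10870 with auxin, and 6084, 4926 and 7020 in mid-G1 control against 19404, 13366 and 13487 with auxin, so that the groups were apart in both stages. In late-G1 they were 8705 and 8754 against 8695 and 15417, and overlapped. The summit was never within 500 bp of the start of Atp5g2.

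Within single stages the members called were likewise 0. The background was 0.0746% in early-G1, 0.181% in mid-G1 and 0.245% in late-G1, and 1, 6 and 9 members (1.30%, 7.79% and 11.7%) had an unadjusted p under 0.05, against 4.04%, 8.86% and 8.63% of all genes. Without late-G1 control replicate 2, Ndufb8, in its own entry and not the one that runs on from Sec31b, was called lower with auxin in late-G1, at -2.22 ± 0.48 (limma adjusted p = 0.025), where 2.95% of all genes were then called. A change from early-G1 to late-G1 that differed between auxin and control was found for 0 members, where 0.032% of all genes were called. For this change, 2 members (2.60%) had an unadjusted p under 0.05, against 4.86% of all genes. The smallest adjusted p was that of Ndufs1, 0.908 (limma, difference of 1.33 ± 0.46).

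Covered bases, a measure of how far PolII peaks spread over the gene, gave 0 members for auxin against control, where 0% of all genes were called. At an unadjusted p under 0.05 there was 1 member, Atp5g2 (1.30%), against 3.80% of all genes. When mid-G1 control replicate 1 was left out, Atp5g2 was called lower with auxin at -0.99 ± 0.12 log2 bases (limma adjusted p = 0.022), where 0.181% of all genes were called. Covered bases take in all peaks of the window and are not tied to the start of the gene. For Atp5g2 they had a median of 5328.5 in a window of 9180 bases over the 14 post-mitotic libraries.

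To ask how PolII at these genes moved through G1, the stages were compared over both conditions together. From early-G1 to late-G1, 11 of 77 members (14.3%) were called, beside 13.5% of all genes, 4 higher in late-G1 (background 6.29%) and 7 lower (background 7.18%). From early-G1 to mid-G1 there were 13 (16.9%), beside 13.5%, with 3 higher (background 5.09%) and 10 lower (background 8.38%). From mid-G1 to late-G1 there were 5 (6.49%), beside 8.21%, with 4 higher (background 4.64%) and 1 lower (background 3.57%). In each comparison the members' share was near that of all genes, so the group did not stand out by the number of its calls. The median difference from early-G1 to late-G1 was -0.24 over members and -0.00243 over all genes, and from early-G1 to mid-G1 it was -0.26 and -0.08, or -0.16 and -0.02 without mid-G1 control replicate 1. The counts of members fell when some single libraries were left out, and so did those of all genes. From early-G1 to late-G1 the members called fell to 6 without early-G1 control replicate 1, early-G1 auxin replicate 1 or early-G1 auxin replicate 2. Of all genes, 7.74%, 7.77% and 8.07% were then called. Without late-G1 auxin replicate 1 the count was 7, beside 8.25% of all genes. From early-G1 to mid-G1 it was 7 without early-G1 control replicate 1, beside 7.95%. From mid-G1 to late-G1 it was 3 without mid-G1 auxin replicate 1 (6.61% of all genes) or late-G1 control replicate 3 (7.59%). It was 1 without late-G1 auxin replicate 2 (4.68%). Without mid-G1 control replicate 1, the counts were 11, 12 and 6 in the order given, beside 15.3%, 13.5% and 7.96% of all genes. The calls are described gene by gene, with a note where the ranks of 2 stages were apart, that is, without overlap. From early-G1 to late-G1 this held for 22.1% of members and 20.1% of all genes. It held for 16.9% and 13.3% from early-G1 to mid-G1, and for 9.09% and 7.2% from mid-G1 to late-G1. The members' shares were thus near those of all genes.

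**Figure D3:**
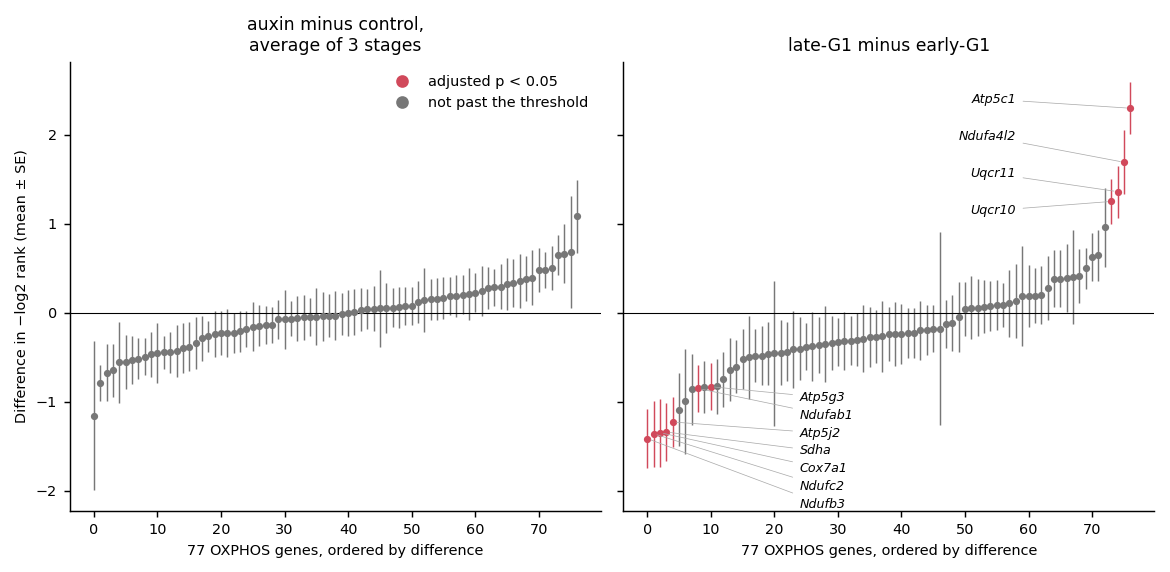
Differences in −log2 rank with their standard errors for the 77 members, ordered by size, for auxin minus control averaged over 3 stages (left) and late-G1 minus early-G1 (right), with members at an adjusted p under 0.05 in red. No member is red on the left, and 4 above and 7 below zero are red on the right, led by Atp5c1 at 2.30.

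The largest rise was that of Atp5c1, which encodes the gamma subunit, the rotating shaft of the ATP synthase. Its ranks in early-G1 were 4283 and 4650 in control and 4173 and 3721 with auxin. In late-G1 they were 1456 and 1391 in control and 602 and 432 with auxin. The 6 mid-G1 libraries lay between 859 and 2232, with a median of 1148, so that early-G1 was apart from both later stages. The difference was 2.30 ± 0.29 from early-G1 to late-G1 (limma adjusted p = 0.000262) and 1.79 ± 0.27 from early-G1 to mid-G1 (limma adjusted p = 0.000658). In control and auxin libraries alone the late-G1 difference was 1.65 ± 0.41 and 2.95 ± 0.41, a gap that did not pass the test (limma adjusted p = 0.997). The best peak was the same as that of Kin, a divergent neighbour, and its summit was nearer to the start of Kin in 12 of 14 libraries.

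Both small subunits of complex III that were called moved in the same direction. Uqcr11 had early-G1 ranks of 6077 and 6622 in control and 5759 and 6283 with auxin, mid-G1 ranks between 1058 and 2664 with a median of 1878, and late-G1 ranks of 1964 and 2030 in control and 2562 and 3264 with auxin. Every library of the later stages was stronger than every early-G1 library. The difference was 1.77 ± 0.27 to mid-G1 (limma adjusted p = 0.000686) and 1.36 ± 0.29 to late-G1 (limma adjusted p = 0.00679). The summit was within 500 bp of the start of Uqcr11 and of no other gene in 14 of 14 libraries.

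Uqcr10 rose later. Its ranks were 7228 and 6632 in early-G1 control and 6498 and 6802 with auxin, 4868 to 7470 in mid-G1 with a median of 5735, and 2926 and 1978 in late-G1 control and 3764 and 3023 with auxin. The late-G1 libraries were apart from all others, while early-G1 and mid-G1 overlapped. The difference was 1.25 ± 0.25 from early-G1 to late-G1 (limma adjusted p = 0.00417) and 1.05 ± 0.23 from mid-G1 to late-G1 (limma adjusted p = 0.0111). The start is shared with Zmat5.

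Ndufa4l2 followed the same course, with early-G1 ranks of 5928 and 2323 in control and 3225 and 4910 with auxin, mid-G1 ranks of 2022 to 4293 with a median of 3334.5, and late-G1 ranks of 1294 and 870 in control and 1771 and 1002 with auxin. The late-G1 libraries did not overlap the others. The difference from early-G1 to late-G1 was 1.69 ± 0.36 (limma adjusted p = 0.00665). This peak lay inside the gene and not at its start, and in 13 of 14 libraries it was also the best peak of Shmt2, the neighbouring gene of a mitochondrial serine hydroxymethyltransferase. Ndufa10, an accessory subunit of complex I, was called higher in mid-G1 than in early-G1 at 0.91 ± 0.26 (limma adjusted p = 0.0293), with late-G1 ranks of 3956 to 6511 that overlapped the 4371 to 7464 of early-G1, and it kept this call in 13 of 21 alternatives.

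**Figure D4:**
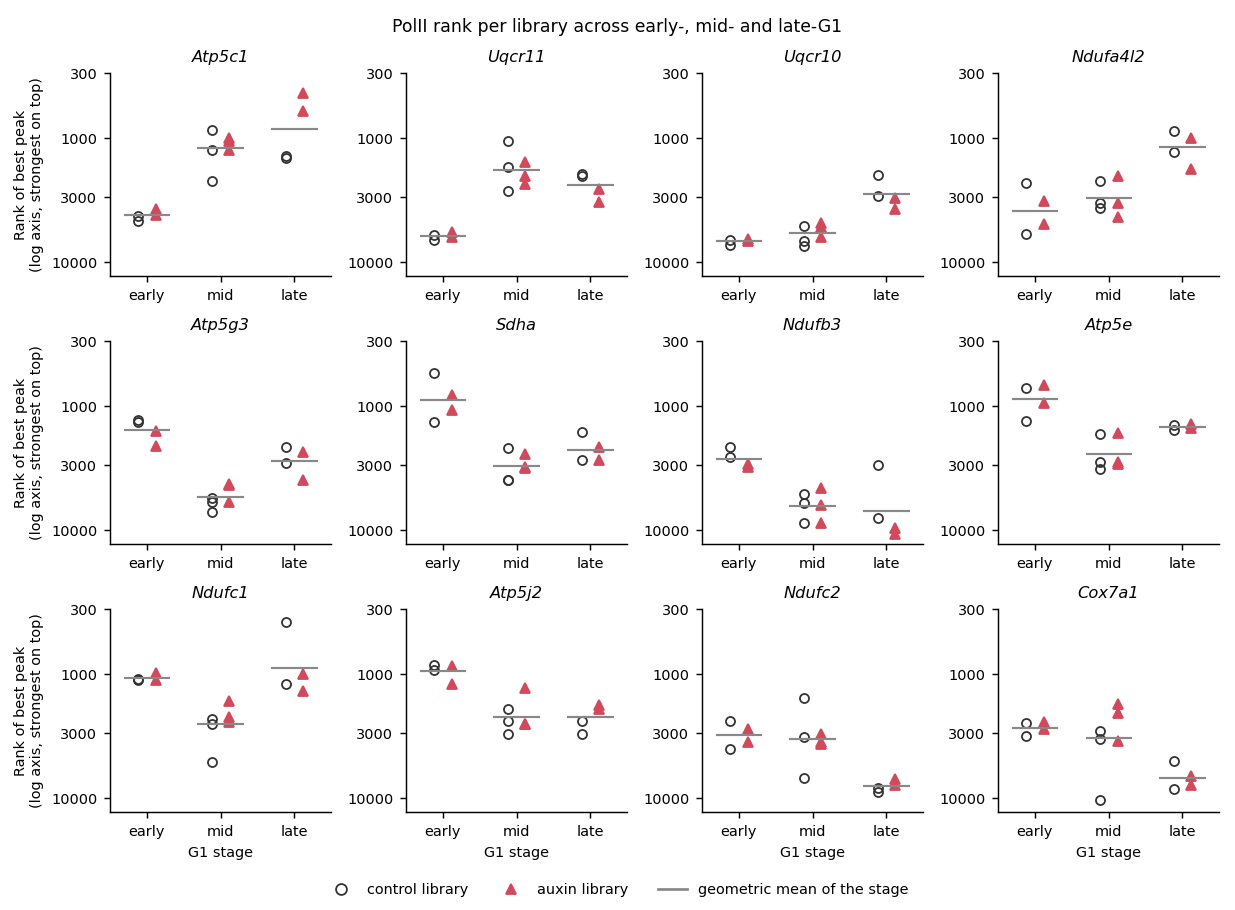
Rank of the strongest peak in each post-mitotic library for 12 members called in at least 1 stage comparison, on a log axis with the strongest on top, with open circles for control, red triangles for auxin and a grey line for the geometric mean of the stage. Atp5c1, Uqcr11, Uqcr10 and Ndufa4l2 rise from early-G1 to late-G1, Atp5g3, Sdha and Atp5e are strongest in early-G1, and Ndufc1 dips in mid-G1.

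Members that were stronger in early-G1 came from complexes I, II, IV and V. Atp5g3, a gene for subunit c of the rotor ring, had early-G1 ranks of 1340 and 1298 in control and 1588 and 2104 with auxin. In mid-G1 the ranks were 4284 to 7173 with a median of 5731, and in late-G1 they were 2905 and 2141 in control and 3946 and 2359 with auxin. The 3 stages did not overlap, and mid-G1 was the weakest. The difference was -1.81 ± 0.24 to mid-G1 (limma adjusted p = 0.000291), 0.98 ± 0.24 from mid-G1 to late-G1 (limma adjusted p = 0.0209) and -0.83 ± 0.26 from early-G1 to late-G1 (limma adjusted p = 0.0497), the last of which lost its call in 14 of 21 alternatives.

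Sdha, the only complex II member called, had early-G1 ranks of 540 and 1335 in control and 822 and 1067 with auxin, mid-G1 ranks of 2191 to 3925 with a median of 3141, and late-G1 ranks of 2706 and 1628 in control and 2138 and 2745 with auxin. Early-G1 was apart from both later stages. The difference was -1.78 ± 0.30 to mid-G1 (limma adjusted p = 0.00144) and -1.34 ± 0.33 to late-G1 (limma adjusted p = 0.0146). Its start is shared with Ccdc127.

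Among the other ATP synthase genes, Atp5e was at -1.47 ± 0.28 in mid-G1 against early-G1 (limma adjusted p = 0.00328). Its early-G1 ranks were 710 and 1321 in control and 675 and 940 with auxin, and those of mid-G1 were 1657 to 3207. Atp5j2, the f subunit, was lower at both later stages, by -1.21 ± 0.26 (limma adjusted p = 0.00664) and -1.23 ± 0.29 (limma adjusted p = 0.0111). Its early-G1 ranks were 851 and 931 in control and 1204 and 862 with auxin, and in late-G1 they were 2380 and 3064 in control and 1762 and 1914 with auxin. Atp5j, which shares its peak with Gabpa, was at -0.92 ± 0.24 in mid-G1 (limma adjusted p = 0.0204). For Atp5e and Atp5j2 the ranges of early-G1 and mid-G1 were apart, and the summit lay at the own start alone.

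In complex I, Ndufb3 was lower at both later stages, by -1.27 ± 0.30 (limma adjusted p = 0.012) in mid-G1 and -1.41 ± 0.33 (limma adjusted p = 0.0114) in late-G1. Its early-G1 ranks were 2124 and 2555 in control and 3093 and 2960 with auxin, and its late-G1 ranks were 8073 and 2970 in control and 10687 and 9721 with auxin, so that 1 late-G1 control library reached the early-G1 range. Ndufc2 stayed level until mid-G1 and was lower in late-G1, at -1.36 ± 0.37 against early-G1 (limma adjusted p = 0.0247), with late-G1 ranks of 8289 and 8993 in control and 6993 and 7789 with auxin, apart from the 2403 to 3996 of early-G1. Ndufc1 dipped and came back, at -1.24 ± 0.33 from early-G1 to mid-G1 (limma adjusted p = 0.021) and 1.52 ± 0.33 from mid-G1 to late-G1 (limma adjusted p = 0.0109). Its early-G1 ranks were 986 to 1110, those of mid-G1 1643 to 5131, and those of late-G1 1204 and 380 in control and 1359 and 1002 with auxin. All 3 genes encode accessory subunits that are not part of the catalytic core.

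The remaining calls were smaller or at other starts. Ndufab1, which encodes the mitochondrial acyl carrier protein, was at -0.85 ± 0.27 in late-G1 against early-G1 (limma adjusted p = 0.048), and Ndufa3 and Ndufa9 were at -0.89 ± 0.27 and -0.87 ± 0.26 in mid-G1 against early-G1 (limma adjusted p = 0.04 and 0.0401). These calls were kept in 6 of 21 alternatives for Ndufab1 and in 8 each for Ndufa3 and Ndufa9. Ndufb6 was at -1.53 ± 0.33 in mid-G1 (limma adjusted p = 0.00621) through the peak at Topors. With peaks within 500 bp of its own start it was at 0.16, with a limma adjusted p of 0.768, so the call is that of the other start. Cox7a1, the muscle form with a peak at its own start, was at -1.35 ± 0.38 in late-G1 (limma adjusted p = 0.0307), with early-G1 ranks of 2496 and 3152 in control and 2791 and 2423 with auxin and late-G1 ranks of 5021 and 8467 in control and 6698 and 7789 with auxin. It was the only complex IV member called on rank between stages. The late-G1 calls of Cox7a1 and Ndufc2 against early-G1 were each kept in 12 of 21 alternatives.

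By place of the summit, the members called from early-G1 to late-G1 were 1 higher and 5 lower of 41 with their own start alone, 2 higher and 2 lower of 23 with a shared start, and 1 higher and 0 lower of 13 with the summit elsewhere. Over all genes, whatever the place, 6.29% were higher and 7.18% lower. All genes were not counted by place, and the places were not compared by a test. Where the log2 fold enrichment itself was compared in place of its rank, 0 members were called from early-G1 to late-G1, 3 from early-G1 to mid-G1 and 0 from mid-G1 to late-G1, and all genes called fell to 202, 415 and 57. Covered bases gave 0 members from early-G1 to late-G1, where 3.24% of all genes were called. An unadjusted p under 0.05 was found for 4 members (5.19%), against 21.7% of all genes. Without mid-G1 control replicate 1, Ndufb7 at -0.62 ± 0.13, Atp5g2 at -0.51 ± 0.14 and Ndufab1 at -0.46 ± 0.12 log2 bases were called lower in late-G1 (limma adjusted p = 0.0142, 0.0369 and 0.0251), and 22.3% of all genes were called.

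Genes that assemble, serve or regulate the complexes were counted from separate lists. None of the 29 assembly factors, 6 carriers and further subunits, 14 regulators, 12 citrate cycle genes and 74 mitochondrial ribosomal protein genes with a peak in all 14 libraries was called for auxin against control. From early-G1 to late-G1, 3 assembly factors were higher (background 6.29%) and 4 lower (background 7.18%). Surf1, an assembly factor of complex IV, was at -1.62 ± 0.28 (limma adjusted p = 0.00186), and Cox18, which inserts a complex IV subunit into the membrane, at 1.82 ± 0.32 (limma adjusted p = 0.00202). Of the carriers, Slc25a4, an ADP/ATP carrier, was at 1.29 ± 0.33 (limma adjusted p = 0.0171) and Atpif1, the inhibitor of the ATP synthase, at -1.54 ± 0.30 (limma adjusted p = 0.00345).

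Among the regulators, 1 was higher and 1 lower from early-G1 to late-G1. Esrra, a nuclear receptor that activates respiratory genes, was at 1.38 ± 0.25 (limma adjusted p = 0.00235) and Tfb1m, a methyltransferase of mitochondrial ribosomal RNA, at -1.25 ± 0.27 (limma adjusted p = 0.008). Nrf1, Yy1 and Creb1 were not among the genes called in any stage comparison. The citrate cycle had 0 higher and 1 lower, and the mitochondrial ribosome 3 higher and 9 lower of 74, beside 6.29% and 7.18% of all genes, with Mrpl24 at -2.42 ± 0.30 (limma adjusted p = 0.000255). The median difference was -0.06 for assembly, -0.26 for carriers, -0.27 for regulators, 0.16 for the citrate cycle and -0.03 for the mitochondrial ribosome, beside -0.24 for the oxidative phosphorylation genes. From early-G1 to mid-G1, 1 of 14 regulators was higher (background 5.09%) and 4 were lower (background 8.38%). From mid-G1 to late-G1, 1 regulator was higher (background 4.64%) and 0 lower (background 3.57%). The gaps between these shares were not tested.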

How the data were processed

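Libraries were aligned by the authors to mm9 with Bowtie2 2.2.9, filtered with SAMtools 0.1.19 and bedtools 2.27.1, and peaks were called per library with MACS2 2.1.0 against the input of the stage at a q-value of 0.01. The deposited lists give per peak a fold enrichment (a ratio over local background), the −log10 p-value and −log10 q-value and an integer score, all made by the authors. The score was not used. No read counts were analysed here, so depth is relative: pileup and background were solved from the fold enrichment and −log10 p-value of each peak, and the commonest background was divided by the narrowest peak. Whole pileups (within 0.05) came out for 100% of peaks with a −log10 p-value under 200.

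Genes and windows came from GENCODE vM1 (mm9). Python 3.11.15 with numpy 2.4.6 and R 4.3.3 with limma 3.58.1 were used, with 6 group means, after a check on simulated data with 200 changed genes. For late-G1 against early-G1, that check called 3.5% of the changed genes at a difference of 1.00 and 86% at 2.00. The data themselves gave 1264 called genes in that comparison, more than the 200 changed in the simulation. The adjustment was therefore stricter in the simulation, and these shares do not give the power of the comparison in the data. The members, lists and tests were chosen with earlier results of these data known. The text names members past the threshold (at most 15 per comparison), the 3 largest differences per direction for auxin and for late-G1 against early-G1, members in all 4 prometaphase lists, the 3 best mean ranks, members detected in part or in no list, and isoform pairs. The grouping by summit position, the gene neighbours and the pathway genes named were chosen after their values were seen. Cytosolic ribosomal (64 of 144 genes in all 4 prometaphase lists) and proteasome genes (1 of 41) were counted as well. The values of 1 member are not reported here. Alternatives changed the rank scale, the window, the detection filter, the threshold, a replicate block and each library in turn.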

Additional observations from a re-analysis of the deposited data

Results flagged for a closer look

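Dixon's criterion for outlying samples was not applied. Genes of the same families on the X chromosome lay outside the selection, which kept autosomes, and 3 of them had peaks. Ndufb11, a complex I subunit, had a peak in 14 of 14 post-mitotic and 4 of 4 prometaphase libraries, with a median post-mitotic rank of 3361.5. Ndufa1, a complex I subunit, had a peak in 14 of 14 post-mitotic and 0 prometaphase libraries, with a median rank of 11894.5. Cox7b, a complex IV subunit, had a peak in 14 of 14 and 0 libraries, with a median rank of 5725.5. The inputs gave no list to set beside these values.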

How the results depend on the processing

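The main limit is that a peak list holds enrichment above a threshold and not reads, that Ndufs7, Ndufs8 and Ndufb5 were detected in part of the libraries, and that 36 of 77 members share their best peak with, or owe it to, another place than their own start. Auxin against control gave 0 members on rank over the 3 stages in every alternative, and 0 to 1 in late-G1 when 1 library was left out. From early-G1 to late-G1, 1 member was called with normal scores and 0 with log2 fold enrichment, beside 11. From early-G1 to mid-G1 these alternatives gave 5 and 3, beside 13. From mid-G1 to late-G1 they gave 0 and 0, beside 5. All genes called fell as well, from 1264, 1264 and 770 to 318, 407 and 108 with normal scores. With log2 fold enrichment they fell to 202, 415 and 57. Leaving out 1 library in turn gave 6 to 13 members, 7 to 13 and 1 to 6 in these comparisons, 0 to 3 for covered bases between early-G1 and late-G1 and 0 to 1 for covered bases with auxin. The lowest counts came without an early-G1 library in the first, without early-G1 control replicate 1 in the second and without late-G1 auxin replicate 2 in the third. Of all genes, 7.74% to 8.07%, 7.95% and 4.68% were then called. Counting only members with their own start alone, an alternative chosen after seeing the data, left 6 of the 11. Replicate numbers were not used as pairs in the main fit. The correlation of same-numbered libraries ran from 0.0178 to 0.282 over 6 pairs, and that of differently numbered ones from -0.2316 to 0.1475. With 2 libraries in a group, these values are equal in size by construction, so early-G1 and late-G1 cannot decide on pairing. Whether the numbers mark pairs was not tested. With the replicate block, 11 members were called from early-G1 to late-G1, 10 from early-G1 to mid-G1, where Ndufa10, Ndufa3 and Ndufa9 lost their calls, and 8 from mid-G1 to late-G1, 5 of them among the main ones. The shares of all genes were 15.8%, 15.8% and 10.5%. Ndufa6 with auxin turned to -0.35 under the block within stage, and Ndufb6 in mid-G1 to 0.155 with peaks at its own start, and the cause was not tested. Of 609 values of called members under the alternatives, 465 kept their call and direction, 143 lost the call and 1 reversed. The counts of detected members stayed within 1.5 times under each alternative run.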
